A study of Homo sapiens with 6 samples.

Results

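The serine and folate one-carbon enzymes examined here are 10 genes: PHGDH, PSAT1 and PSPH of serine synthesis, SHMT2, MTHFD2, MTHFD1L and ALDH1L2 of the mitochondrial folate pathway, SHMT1 and MTHFD1 of its cytosolic counterpart, and ASNS, asparagine synthetase. They were chosen by name, with earlier results of these data known, and all 10 were found once among the 58243 genes listed. All 10 also passed the level filter of a mean of at least 1 FPKM that left 13437 tested genes. The RNA came from CAL27 cells, an established human line grown from a tongue squamous carcinoma. They had received 30 mM metformin (3 libraries) or the phosphate-buffered saline vehicle, PBS (3 libraries), for 48 h. No other dose, time or cell line was analysed here, and the labels name no genetic change in either group. Whether each library is its own culture is not labelled, so the p-values cover library-to-library spread that may be technical.

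Serine is made from an intermediate of glycolysis in a short pathway: PHGDH oxidizes phosphoglycerate, PSAT1 transfers an amino group from glutamate, and PSPH removes the phosphate. The hydroxymethyltransferases SHMT1 and SHMT2 then split serine into glycine and a carbon unit carried by folate, in the cytosol and the mitochondrion. In mitochondria that unit passes through MTHFD2 and MTHFD1L to formate, or is oxidized to carbon dioxide by ALDH1L2, while in the cytosol MTHFD1 interconverts the folate-bound units and formate and ALDH1L1 carries out the oxidation, and the units are used for purine, thymidylate and methionine synthesis. Several of these genes, and ASNS, are known targets of the stress transcription factor ATF4, and metformin is known as an inhibitor of respiratory complex I.

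The deposited values are FPKM (fragments per kilobase and per library total), so levels can be compared between genes per length. The absolute depth is unknown, but the spacing of low values put the libraries at 0.957 to 1.08 times the depth of PBS replicate 1, with metformin libraries at 0.975 to 1.04. The 7 epithelial and squamous markers were present in every library, with summed levels of 414 to 435 FPKM in metformin libraries and 984 to 1043 FPKM in PBS libraries. Of these markers, 2 rose and 5 fell at the threshold given below, where 31.0% of all tested genes were called higher and 25.2% lower. Over 16 alternative settings, the call of KRT17, a lower marker, was lost in 4 and that of CDH1 in 1. EPCAM averaged 129.6 FPKM in metformin libraries and 102.6 FPKM in PBS libraries, and CDH1 averaged 61.0 FPKM in metformin libraries and 51.5 FPKM in PBS libraries. Most of the lower sum lay in basal keratins. KRT5 averaged 52.4 FPKM in metformin libraries and 355 FPKM in PBS libraries, and KRT14, the largest fall of any tested gene, 12.9 FPKM in metformin libraries and 246 FPKM in PBS libraries. Of 8 markers of immune, endothelial and fibroblast cells, 6 were below the level filter, and the list summed to 3.404 to 4.02 FPKM in metformin libraries and 4.31 to 6.15 FPKM in PBS libraries. The 2 tested ones were called in opposite directions. CD14 averaged 0.942 FPKM in metformin libraries and 3.71 FPKM in PBS libraries, and passed the level filter only through its PBS libraries. COL1A1 averaged 2.38 FPKM in metformin libraries and 1.36 FPKM in PBS libraries. DCN was listed at 0 in all 6 libraries. In bulk RNA, fewer cells of a state and less RNA per cell cannot be told apart.

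Metformin-treated cells had more transcript of serine synthesis, of the mitochondrial folate enzymes other than MTHFD1L, and of ASNS, and less of both cytosolic enzymes. At an adjusted p below 0.05 (limma on log2(FPKM + 1), Benjamini-Hochberg over all tested genes), 7 of the 10 members rose, 2 fell and 1, MTHFD1L, did not pass. Over all tested genes 31.0% were called higher and 25.2% lower, 56.2% together, so a call by itself does not set a member apart. Higher genes made up 55.2% of all calls, but 48.2% under median-of-ratios scaling and 48.9% under quantile scaling, which left the calls of the 10 members as they were. Groups were fully apart in 9 of the 10 members, against 64.4% of tested genes. The median log2 change of the members was 0.65, beside 0.06 over all tested genes. Summed over the 10 members, the level was 461 ± 6.07 FPKM in metformin libraries and 277 ± 9.96 FPKM in PBS libraries (SD, n = 3 each).

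**Figure D1:**
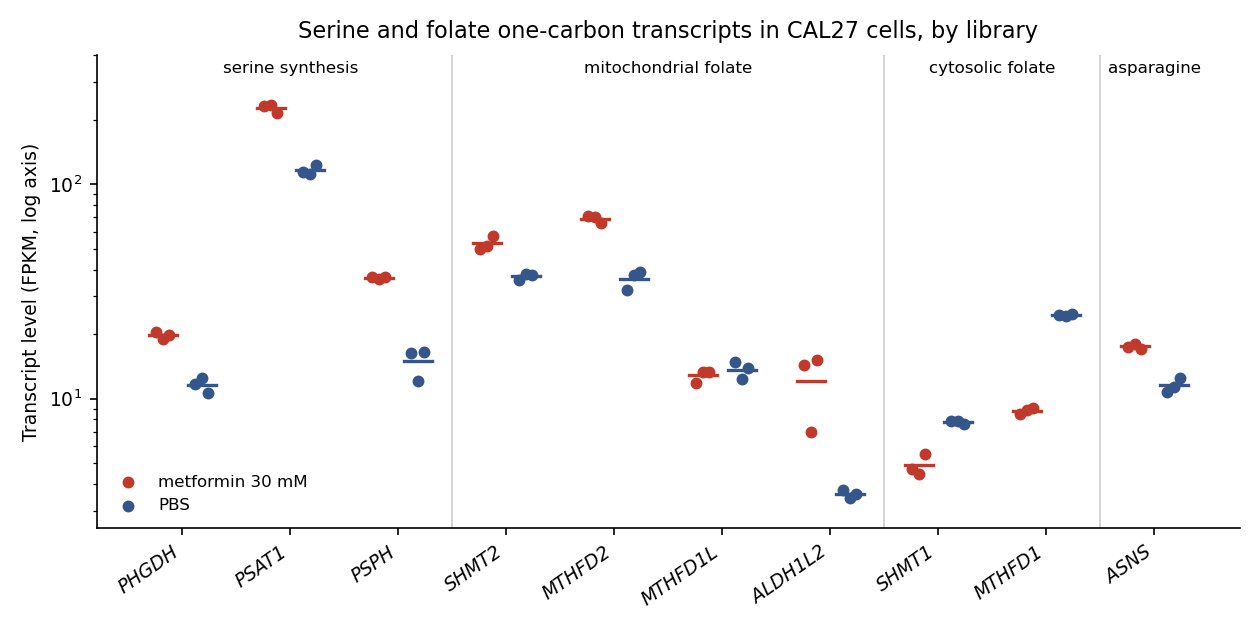
Transcript level in FPKM on a log axis for each of the 10 genes, with points for single libraries (metformin red, PBS blue) and bars for group means. The metformin points lie above the PBS points in serine synthesis, SHMT2, MTHFD2, ALDH1L2 and ASNS, below them in SHMT1 and MTHFD1, and among them in MTHFD1L.

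All 3 genes of serine synthesis rose. PSAT1 (ENSG00000135069.13, chromosome 9, 78297143 to 78330093; coordinates here are GRCh38 from GENCODE 29), the phosphoserine aminotransferase, had 231, 233 and 214 FPKM in metformin libraries, against 114, 111 and 122 FPKM in PBS libraries. Every metformin library thus lay well above every PBS library, 1.95-fold apart in their means, with a log2 change of 0.96 (limma adjusted p = 2.36e-05, SE 0.05). PSAT1 was the most abundant member in both groups, and its share of the summed level was 49.1% ± 1.69 in metformin libraries and 41.8% ± 0.667 in PBS libraries (SD, n = 3 each).

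PSPH (ENSG00000146733.13, chromosome 7, 56011051 to 56051604), the phosphatase of the last step, had 36.9, 36.1 and 36.9 FPKM in metformin libraries, against 16.4, 12.1 and 16.5 FPKM in PBS libraries. Its 2.44-fold rise (log2 change 1.25, SE 0.11, limma adjusted p = 0.000162) was the largest of the 3, and PBS replicate 2 was the low one of its group. PHGDH (ENSG00000092621.12, chromosome 1, 119648411 to 119744226), the dehydrogenase of the first step, had 20.6, 18.9 and 19.8 FPKM in metformin libraries, against 11.7, 12.5 and 10.6 FPKM in PBS libraries. The groups were again apart, by 1.70-fold (log2 change 0.72, SE 0.07, limma adjusted p = 0.000257). Within the pathway PSAT1 stood far above its neighbours, with 226 FPKM on average in metformin libraries beside 36.6 FPKM for PSPH and 19.7 FPKM for PHGDH, and 116 FPKM in PBS libraries beside 15.0 and 11.6 FPKM.

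Of the 4 mitochondrial folate genes, 3 rose. MTHFD2 (ENSG00000065911.11, chromosome 2, 74198562 to 74217565), a dehydrogenase and cyclohydrolase known for its high level in many tumours, had 70.9, 70.5 and 65.7 FPKM in metformin libraries, against 32.0, 37.6 and 39.0 FPKM in PBS libraries. The groups were far apart relative to their spread, by 1.91-fold (log2 change 0.92, SE 0.08, limma adjusted p = 0.000142). SHMT2 (ENSG00000182199.10, chromosome 12, 57229327 to 57234935), the mitochondrial serine hydroxymethyltransferase, had 49.7, 51.7 and 57.4 FPKM in metformin libraries, against 35.7, 38.0 and 37.9 FPKM in PBS libraries. It rose by the least of the 7 members called higher, 1.42-fold (log2 change 0.50, SE 0.07, limma adjusted p = 0.000868).

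ALDH1L2 (ENSG00000136010.13, chromosome 12, 105019784 to 105084577), which oxidizes formyl-folate to carbon dioxide and yields NADPH, had 14.3, 6.996 and 15.1 FPKM in metformin libraries, against 3.76, 3.43 and 3.58 FPKM in PBS libraries. All metformin libraries were above all PBS libraries, but metformin replicate 2 was far below the other two, so the size of the rise is less certain than that of the other members. The ratio of means was 3.38 with all libraries and 4.10 without metformin replicate 2, and the log2 change was 1.45 (SE 0.26, limma adjusted p = 0.00309) with all libraries. This rise ranked 374th from the top among the 13437 tested genes, the highest place of any member. MTHFD1L (ENSG00000120254.15, chromosome 6, 150865549 to 151101887), the mitochondrial synthetase that releases formate, had 11.8, 13.4 and 13.4 FPKM in metformin libraries, against 14.8, 12.3 and 13.9 FPKM in PBS libraries. The groups overlapped, with a log2 change of -0.08 and a 95% interval of -0.29 to 0.12 (limma adjusted p = 0.455).

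Both cytosolic genes fell. MTHFD1 (ENSG00000100714.15, chromosome 14, 64388031 to 64463457), the cytosolic enzyme with dehydrogenase, cyclohydrolase and synthetase activities, had 8.49, 8.88 and 9.01 FPKM in metformin libraries, against 24.5, 24.3 and 24.8 FPKM in PBS libraries. The values were tight within each group and 2.79-fold lower with metformin (log2 change -1.38, SE 0.05, limma adjusted p = 5.28e-06). This fall ranked 250th from the bottom among the 13437 tested genes. SHMT1 (ENSG00000176974.19, chromosome 17, 18327860 to 18363563), the cytosolic serine hydroxymethyltransferase, had 4.72, 4.44 and 5.55 FPKM in metformin libraries, against 7.91, 7.88 and 7.66 FPKM in PBS libraries. It was 1.59-fold lower with metformin, without overlap (log2 change -0.58, SE 0.09, limma adjusted p = 0.00128). Proliferation markers moved in the same direction as these genes: all 7 fell (median log2 change -1.73), and they summed to 170 to 185 FPKM in metformin libraries and 517 to 553 FPKM in PBS libraries. Their part in the cytosolic fall was not tested.

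**Figure D2:**
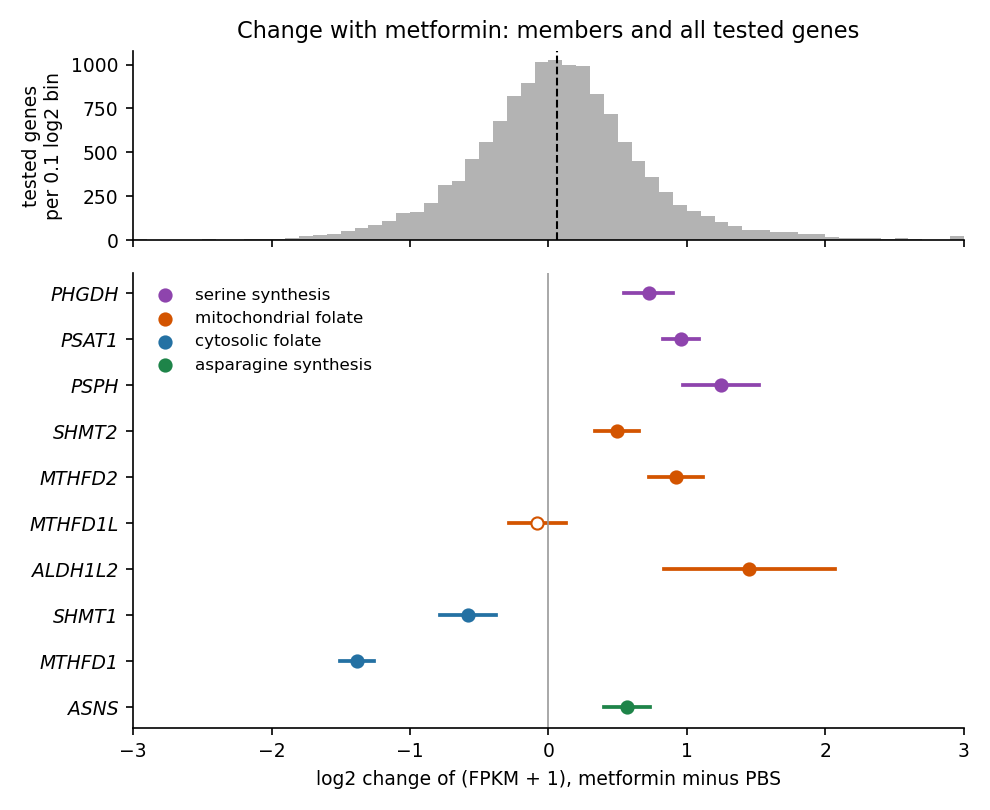
Lower panel: log2 change of (FPKM + 1), metformin minus PBS, for each member with its 95% interval from limma, coloured by pathway step, with an open circle for MTHFD1L, which did not pass the test. Upper panel: the same quantity for all 13437 tested genes in bins of 0.1, values beyond 3 placed in the end bins, with a dashed line at the median of 0.06. The serine synthesis and ASNS intervals and those of 3 mitochondrial genes lie above 0, and both cytosolic intervals lie below it.

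The ratio of a mitochondrial transcript to its cytosolic counterpart within a library does not change when the whole library is multiplied by a single factor. Quantile scaling is not of that kind and can change it. MTHFD2 to MTHFD1 was 8.35, 7.94 and 7.29 in metformin libraries, against 1.31, 1.55 and 1.57 in PBS libraries, a log2 change of 2.42. SHMT2 to SHMT1 was 10.5, 11.6 and 10.3 in metformin libraries, against 4.51, 4.83 and 4.95 in PBS libraries, a log2 change of 1.19. For both of these 2 ratios every metformin library was above every PBS library, and the two-sided exact permutation p was 0.1 (0.1 after Benjamini-Hochberg adjustment over the 2), the smallest that 3 libraries against 3 allow. Expressed as shares, SHMT2 made up 91.5% ± 0.488 of the summed SHMT1 and SHMT2 level in metformin libraries and 82.6% ± 0.694 in PBS libraries. MTHFD2 made up 86.8% ± 0.482 of the sum of MTHFD1, MTHFD2 and MTHFD2L in metformin libraries and 59.0% ± 2.52 in PBS libraries (SD, n = 3 each).

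MTHFD1L, itself without a called change, exceeded MTHFD1 with metformin and not with PBS. Its ratio to MTHFD1 was 1.39, 1.504 and 1.49 in metformin libraries, against 0.606, 0.508 and 0.559 in PBS libraries, a difference that was not tested. Over the groups of the comparison, the 4 mitochondrial genes had a mean log2 change of 0.70 and the 2 cytosolic genes one of -0.98, a difference of 1.68. Summed levels were 147 ± 4.54 FPKM in metformin libraries and 90.6 ± 4.09 FPKM in PBS libraries for the mitochondrial genes. For the cytosolic genes they were 13.7 ± 0.753 FPKM in metformin libraries and 32.3 ± 0.163 FPKM in PBS libraries (SD, n = 3 each).

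**Figure D3:**
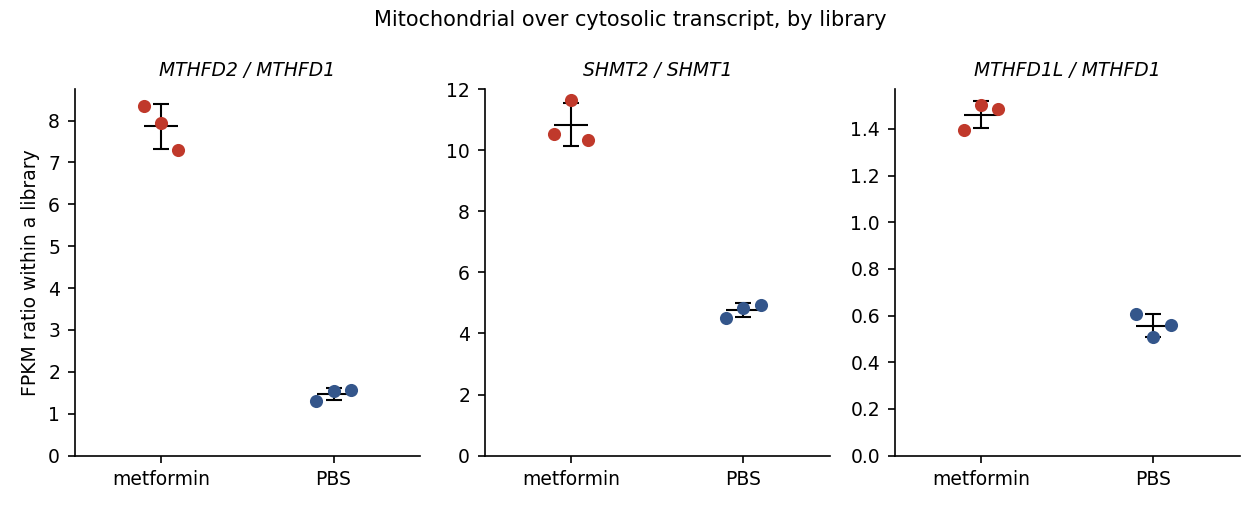
FPKM ratio of a mitochondrial to a cytosolic transcript within each library (points), with the group mean and SD (black), for MTHFD2 to MTHFD1, SHMT2 to SHMT1 and MTHFD1L to MTHFD1. In each panel the 3 metformin libraries lie above the 3 PBS libraries, by the widest margin for MTHFD2 to MTHFD1, with means of 7.86 in metformin and 1.47 in PBS libraries.

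ASNS (ENSG00000070669.16, chromosome 7, 97852118 to 97872542), which makes asparagine from aspartate and glutamine and is a textbook target of the amino acid response, had 17.4, 18.1 and 17.1 FPKM in metformin libraries, against 10.7, 11.4 and 12.5 FPKM in PBS libraries. The groups did not overlap, and the rise was 1.52-fold (log2 change 0.57, SE 0.07, limma adjusted p = 0.000566). It was thus among the smaller rises of the members, above SHMT2 alone.

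The order of the members by level differed between the groups. With metformin it ran PSAT1, MTHFD2, SHMT2, PSPH, PHGDH, ASNS, MTHFD1L, ALDH1L2, MTHFD1 and SHMT1, and neighbours overlapped only at ALDH1L2, whose values spanned those of MTHFD1L and MTHFD1. With PBS it ran PSAT1, SHMT2, MTHFD2, MTHFD1, PSPH, MTHFD1L, PHGDH, ASNS, SHMT1 and ALDH1L2. There SHMT2 overlapped MTHFD2, and PSPH, MTHFD1L, PHGDH and ASNS formed a run in which each overlapped the next. MTHFD1 was 9th of the 10 with metformin and 4th with PBS. Among all tested genes it stood above 63.3% in metformin libraries and above 87.4% in PBS libraries, whereas ALDH1L2 stood above 73.1% in metformin libraries and above 36.0% in PBS libraries.

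Promoter windows from RefSeq (GRCh38.p14), running from 250 bases before to 50 after a transcript start, were found for 7 of the 10 members. PSPH, SHMT2 and ALDH1L2 were not matched. The windows were searched on both strands for TGATGNAA, the core of the C/EBP-ATF response element bound by ATF4 with a C/EBP partner, and for CACGTG, the palindromic E-box bound by MYC and related factors, which can share end bases with the first but did not in these members. Of 35116 windows of the same length over all genes, 3.62% held TGATGNAA and 7.26% held CACGTG. Counted by gene, as for the members, 1217 of 27305 genes held TGATGNAA in any window and 2396 held CACGTG. Among the members ASNS and MTHFD1L held the first motif and MTHFD1L and MTHFD1 the second, while the windows of PHGDH, PSAT1, MTHFD2 and SHMT1 held neither. The 250 bases before the start are shown for these 3 genes, because they place a response element before a member that rose and before one that was not called, and an E-box alone before the member that fell most. They run 5′ to 3′ on the strand of the gene, from chr7:97872409-97872658 (minus strand) for ASNS, chr6:150866236-150866485 (plus strand) for MTHFD1L and chr14:64388103-64388352 (plus strand) for MTHFD1, with matched motifs in capitals.
ASNS: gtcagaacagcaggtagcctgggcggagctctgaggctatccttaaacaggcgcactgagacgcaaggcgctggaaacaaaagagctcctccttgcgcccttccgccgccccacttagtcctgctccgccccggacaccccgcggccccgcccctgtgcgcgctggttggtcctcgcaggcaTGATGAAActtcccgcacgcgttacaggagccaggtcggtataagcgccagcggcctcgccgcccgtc
MTHFD1L: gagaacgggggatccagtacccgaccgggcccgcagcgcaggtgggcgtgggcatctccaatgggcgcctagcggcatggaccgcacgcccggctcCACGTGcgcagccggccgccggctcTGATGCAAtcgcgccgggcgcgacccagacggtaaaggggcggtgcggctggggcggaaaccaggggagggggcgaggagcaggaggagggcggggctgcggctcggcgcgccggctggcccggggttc
MTHFD1: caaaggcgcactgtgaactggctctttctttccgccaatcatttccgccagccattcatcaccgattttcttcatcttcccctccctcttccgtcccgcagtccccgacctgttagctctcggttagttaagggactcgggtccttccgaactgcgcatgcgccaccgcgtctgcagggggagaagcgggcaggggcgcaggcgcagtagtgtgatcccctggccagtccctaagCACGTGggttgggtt
The match in ASNS, TGATGAAA, began 68 bases before the start. The match in MTHFD1L, TGATGCAA, began 129 bases before the start, with CACGTG beginning at 154 bases. The CACGTG of MTHFD1 began 15 bases before the start. ASNS had a further annotated start and MTHFD1L 3 more, 2 of them with both motifs in their windows because they lie near the first. A match describes these letters only: ASNS rose 1.52-fold, MTHFD1L was not called, and PSAT1 and MTHFD2, without a match in this window, rose 1.95-fold and 1.91-fold.

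The factors named for these motifs were themselves measured. ATF4 had 215, 211 and 223 FPKM in metformin libraries, against 128, 133 and 132 FPKM in PBS libraries, which is a rise of 0.72 on the log2 scale (SE 0.04, limma adjusted p = 2.42e-05). CEBPG, a C/EBP protein that pairs with ATF4, had 46.9, 48.3 and 46.6 FPKM in metformin libraries, against 12.5, 12.3 and 12.02 FPKM in PBS libraries, with a log2 change of 1.86 (limma adjusted p = 1.87e-06, SE 0.05). CEBPB, another C/EBP factor, rose 1.85-fold, to 132 ± 2.399 FPKM in metformin libraries, against 71.2 ± 8.43 FPKM in PBS libraries. MYC had 40.0, 37.4 and 21.6 FPKM in metformin libraries, against 8.26, 3.68 and 26.5 FPKM in PBS libraries. Its groups overlapped through PBS replicate 3, and it did not pass (log2 change 1.63, limma adjusted p = 0.058). MYC was not called in 16 of 17 settings, over which its log2 change ran between 1.04 and 2.32 and its adjusted p between 0.00396 and 0.146, and it passed only without that library.

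The rest of the pathway was described by 7 lists of 63 genes, of which 47 passed the level filter. Of these, 10 rose and 25 fell, where 31.0% of all tested genes were called higher and 25.2% lower. These shares are also the background for the counts of each list below. The counts include MTHFD2L, SFXN2, SARDH and PYCR3, which passed the level filter only through the group where they were higher. Their calls are not read as support. The median log2 change of the 47 genes was -0.32, beside 0.06 over all tested genes. The folate enzymes outside the members gave 2 higher and 4 lower of 9 tested. FPGS, which adds the glutamate tail that retains folate in cells, fell to 5.18 ± 0.991 FPKM in metformin libraries, against 13.0 ± 1.63 FPKM in PBS libraries (2.51-fold, limma adjusted p = 0.000533). GGH, which removes that tail, fell to 5.94 ± 0.785 FPKM in metformin libraries, against 14.6 ± 0.759 FPKM in PBS libraries (2.46-fold, limma adjusted p = 9.79e-05). MTHFS, which recycles formyl-folate, averaged 8.80 FPKM in metformin libraries and 10.0 FPKM in PBS libraries and did not pass (limma adjusted p = 0.281), but did without PBS replicate 1 (0.0275).

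MTHFD2L, a further mitochondrial dehydrogenase of that list, is named after its values were seen. It had 1.77, 1.92 and 1.32 FPKM in metformin libraries, against 0.580, 0.448 and 0.535 FPKM in PBS libraries, with a log2 change of 0.80 (limma adjusted p = 0.0017, SE 0.13). With a PBS mean of 0.521 FPKM, MTHFD2L passed the level filter only through its metformin libraries, so its call is not read as support. At this low level the added 1 FPKM compresses the change: the ratio of means was 3.20, and the MTHFD2L log2 change was 1.499 with a pseudocount of 0.1 and 1.65 with 0.01. ALDH1L1, the cytosolic relative of ALDH1L2, was below the level filter and not tested, with 0.171, 0.162 and 0.150 FPKM in metformin libraries, against 0.707, 0.499 and 0.512 FPKM in PBS libraries.

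Among folate carriers 1 was higher and 1 lower of 3 tested. SLC19A1, the reduced folate carrier of the plasma membrane, fell to 5.03 ± 0.181 FPKM in metformin libraries, against 8.31 ± 0.496 FPKM in PBS libraries (log2 change -0.63, limma adjusted p = 0.000378). SLC46A1, the proton-coupled carrier, had 6.88, 7.07 and 4.72 FPKM in metformin libraries, against 4.21, 3.64 and 4.56 FPKM in PBS libraries. It passed narrowly (log2 change 0.48, limma adjusted p = 0.0309), a call lost in 8 of 16 alternatives: without metformin replicate 1 (0.096) or 2 (0.0936), without PBS replicate 1 (0.0671) or 2 (0.093), with no level filter (0.0728), with a replicate block (0.0628), and under median-of-ratios (0.051) and quantile scaling (0.056). SLC25A32, the carrier that brings folate into mitochondria, averaged 11.7 FPKM in both groups (log2 change 0.00, 95% interval -0.16 to 0.16, limma adjusted p = 0.973).

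Of 4 genes whose products use folate carbon units, 2 were lower and 0 higher. TYMS, thymidylate synthase, had 10.4, 12.7 and 13.8 FPKM in metformin libraries, against 59.6, 60.6 and 63.2 FPKM in PBS libraries (log2 change -2.23, limma adjusted p = 8.69e-06). ATIC of purine synthesis fell less, to 30.9 ± 1.52 FPKM in metformin libraries, against 41.1 ± 0.953 FPKM in PBS libraries. GART, which acts earlier in that pathway, averaged 26.2 FPKM in metformin libraries and 28.9 FPKM in PBS libraries and did not pass (limma adjusted p = 0.129), though it did under median-of-ratios scaling (log2 change -0.21, limma adjusted p = 0.0369).

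The 3 tested mitochondrial serine carriers of the sideroflexin family were all lower, in contrast in sign to SHMT2 and MTHFD2. SFXN1, known to carry serine into mitochondria, had 8.53, 9.64 and 8.61 FPKM in metformin libraries, against 14.5, 15.3 and 14.3 FPKM in PBS libraries (log2 change -0.66, limma adjusted p = 0.000274). SFXN2 had 0.572 ± 0.153 FPKM in metformin libraries and 2.07 ± 0.134 FPKM in PBS libraries, and SFXN3 had 4.004 ± 0.774 FPKM in metformin libraries and 6.19 ± 0.605 FPKM in PBS libraries (SD, n = 3 each). SFXN2 passed the level filter only through its PBS libraries.

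Glycine cleavage and the breakdown of serine and glycine gave 1 higher and 4 lower of 6 tested. SARDH, among the lower genes, averaged 0.895 FPKM in metformin libraries and 1.76 FPKM in PBS libraries. SARDH passed the level filter only through its PBS libraries. GCAT, which makes glycine from the threonine breakdown product, fell 2.84-fold, to 3.49 ± 0.354 FPKM in metformin libraries, against 9.91 ± 0.375 FPKM in PBS libraries. DLD, a dehydrogenase shared by glycine cleavage and several keto acid dehydrogenases, fell 2.26-fold, and GCSH, the lipoyl carrier of glycine cleavage, 1.72-fold. SRR, serine racemase, averaged 9.76 FPKM in metformin libraries and 11.5 FPKM in PBS libraries and did not pass (limma adjusted p = 0.101), though it did under median-of-ratios scaling (0.0423). The decarboxylase GLDC, which glycine cleavage requires, was at or below 0.0143 FPKM in every library and was not tested. SDSL, the 1 gene of this list that rose, is named after its value was seen and was 1.42-fold higher.

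**Figure D4:**
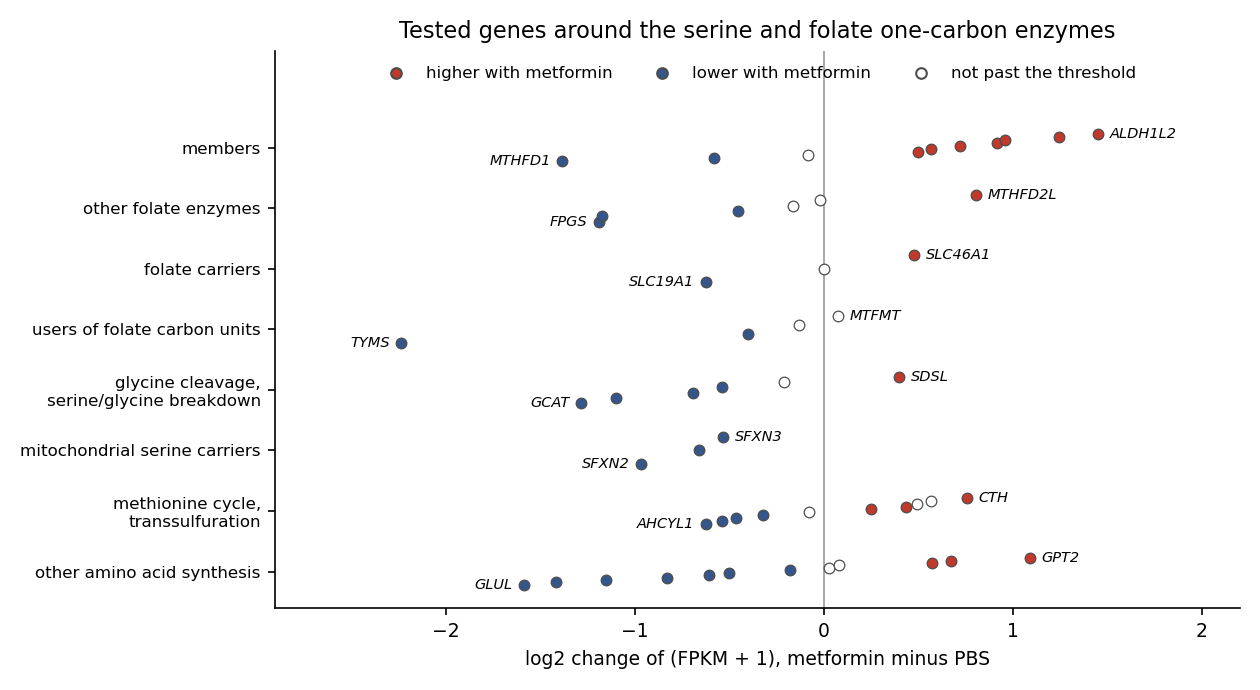
Log2 change of (FPKM + 1), metformin minus PBS, for the 10 members and for the tested genes of the 7 lists that are reported here, in red for genes higher with metformin, blue for lower and open for those not past the adjusted p threshold of 0.05, with the gene at each end of a row named. The members lie mostly to the right of 0, and the serine carriers and all called users of folate units lie to the left.

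In the methionine cycle and transsulfuration list 3 were higher and 4 lower of 10 tested. CTH, which releases cysteine from cystathionine, rose to 7.24 ± 1.10 FPKM in metformin libraries, against 3.86 ± 0.495 FPKM in PBS libraries (log2 change 0.76, limma adjusted p = 0.00193). AHCY, which splits S-adenosylhomocysteine, fell to 46.8 ± 1.27 FPKM in metformin libraries, against 68.3 ± 0.394 FPKM in PBS libraries (log2 change -0.54, limma adjusted p = 9.17e-05). AHCYL1, a related protein without that enzyme activity, passed narrowly with overlapping groups (log2 change -0.63, limma adjusted p = 0.0443). That call was lost in 8 of 16 alternatives: without metformin replicate 1 (0.125) or 3 (0.112), without PBS replicate 1 (0.116) or 2 (0.129), with no level filter (0.105), under quantile scaling (0.0629), and with no trend (0.053) or a robust prior (0.0505) in limma. MTRR, methionine synthase reductase, averaged 9.75 FPKM in metformin libraries and 10.4 FPKM in PBS libraries (limma adjusted p = 0.326).

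Enzymes of other amino acid synthesis gave 3 higher and 7 lower of 12 tested. GLUL, glutamine synthetase, fell 3.20-fold, with 8.19, 9.37 and 11.1 FPKM in metformin libraries, against 30.5, 34.2 and 27.1 FPKM in PBS libraries. ASL, argininosuccinate lyase, fell 3.28-fold, to 2.71 ± 0.265 FPKM in metformin libraries, against 8.89 ± 0.303 FPKM in PBS libraries. PYCR3, a cytosolic enzyme of proline synthesis, fell 3.49-fold to 0.937 ± 0.321 FPKM, against 3.27 ± 0.183 FPKM in PBS libraries. PYCR3 passed the level filter only through its PBS libraries. ASS1, argininosuccinate synthase, averaged 127 FPKM in metformin libraries and 120 FPKM in PBS libraries and did not pass (limma adjusted p = 0.247), though it did under quantile scaling (log2 change 0.21, limma adjusted p = 0.0113). The lists therefore held genes in both directions, with more called lower than higher, around members most of which rose.

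Counting can blur some of these values. MTHFD2, MTHFD1 and SHMT1 share exon bases with another tested gene on the opposite strand: 295 bases of MTHFD2 with AC006030.1, 178 of MTHFD1 with ZBTB25 and 756 of MTHFD1 with AL122035.2, none of which averaged over 2.34 FPKM in a group. SHMT1 shares 196 bases with SMCR8, which averaged 14.9 FPKM in metformin libraries and 8.06 FPKM in PBS libraries, the reverse of SHMT1. TYMS, GART, SLC19A1, SLC25A32, SLC46A1, DLD, SRR, MTRR, CEBPB and CDH1, and also GOT2 and PYCR1, overlap such a gene as well. SLC19A1 shares 1401 bases with COL18A1, which averaged 18.6 FPKM in metformin libraries and 29.1 FPKM in PBS libraries, the same direction as SLC19A1. The part of COL18A1 in the SLC19A1 values was not tested. MTHFS shares 555 bases on its own strand with the read-through gene ST20-MTHFS, at 12.1 FPKM in metformin libraries and 4.73 FPKM in PBS libraries. ASNS shares 1985 bases on its own strand with AC079781.5, which was below the level filter, at 0.411 FPKM in metformin libraries and 0.514 FPKM in PBS libraries. The effect of that overlap on the ASNS values was not tested. Whether counting used strand is not given in the sources used here. Of 18 pseudogenes named after members, 14 were listed at 0 in every library and none exceeded 0.288 FPKM.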

How the data were processed

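The 6 libraries were grouped by their titles into metformin and PBS. The authors deposited FPKM values, 1 for each gene in each library (per the file headers), aligned to GRCh38 per the submitters' processing notes; no source used here gives the aligner, counter, strand setting or annotation. No counts were used. Identifiers without versions were named from GENCODE 29, which matched 57980 of 58243 and left 263 unnamed. The 37 genes of mitochondrial DNA were listed at 0, so a listed 0 is not read as absence, and FPKM depends on all other genes of a library.

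Genes averaging 1 FPKM or more were tested on log2(FPKM + 1) with limma 3.58.1 in R 4.3.3 (trend, two-sided, Benjamini-Hochberg, threshold 0.05), group as the only term; the scale understates changes of low genes. The fit was also run on simulated data with far fewer changed genes than were called here, so that run does not bear on these calls. Ratios were tested by exact permutation. Exon overlaps used BEDTools 2.31.1, and other steps Python 3.11.15, pandas 2.3.3 and NumPy 2.4.6. Relative depth came from the spacing of low values in single-transcript genes.

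The members and lists were chosen with earlier results of these data known. The text names all members and the 4 regulators. From each list it names up to 3 called genes with the largest change and at least 2 FPKM in the higher group. It also names the most abundant tested gene of a list that was not called. Any other named gene was picked with its values in view, which holds also for ALDH1L1, GLDC and SARDH. Alternatives were other pseudocounts, level filters, scalings, limma priors, a replicate block and each library left out. Some genes of the lists enter the counts but are not reported here by name or drawn.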

Additional observations from a re-analysis of the deposited data

How the results depend on the processing

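Each of the 10 members kept its direction and its side of the threshold in all 16 other fits (2 pseudocounts, 2 level filters, 3 scalings, a replicate block, 2 priors and each library left out). MTHFD1L was not called in any, with adjusted p from 0.163 to 0.838. ALDH1L2 ranged most, from 1.27 to 1.77 on the log2 scale. Of 738 refits of listed pathway genes, 709 kept their call, 22 lost it in 4 genes, 7 gained it and 0 changed sign while called. The mitochondrial minus cytosolic difference of mean changes was 1.82 with a pseudocount of 0.1 and 1.84 with 0.01, against 1.68, because a smaller pseudocount compresses low values less. Requiring a mean of at least 5 FPKM left 7388 genes, 4738 of them called, against 7549 of 13437.

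The labels do not say whether the replicate numbers pair the libraries. Deviations of same-numbered libraries correlated at 0.00, 0.03 and -0.01 across tested genes. Those of differently numbered libraries ran from -0.047 to 0.044, so the correlations cannot decide it. With a replicate block, 7139 genes and 9 members were called, and the 2 ratios kept log2 changes of 2.42 and 1.19, with an exact sign-flip p of 0.25, the smallest that 3 pairs allow. The SLC46A1 call was lost with it (adjusted p = 0.0628). Median-of-ratios scaling moved the median change of all genes to 0.00, against 0.06. With 3 libraries a group and 1 cell line, dose and time, other conditions were not measured, and levels of protein or metabolites were not part of the data.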

Other observations

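The compartment pattern of the folate enzymes was not seen in aspartate aminotransferases, a pair chosen after its values were seen. GOT1, the cytosolic enzyme, had 62.7, 63.6 and 59.1 FPKM in metformin libraries, against 38.7, 38.3 and 38.1 FPKM in PBS libraries (log2 change 0.67, SE 0.05, limma adjusted p = 5.47e-05). GOT2, the mitochondrial enzyme of the same reaction, had 37.6, 41.9 and 37.8 FPKM in metformin libraries, against 60.0, 60.2 and 59.8 FPKM in PBS libraries (log2 change -0.61, SE 0.06, limma adjusted p = 0.000163). The ratio of GOT1 to GOT2 was 1.58 ± 0.0778 in metformin libraries and 0.640 ± 0.00486 in PBS libraries (SD, n = 3 each), a difference that was not tested. The cytosolic transcript was thus higher relative to the mitochondrial one with metformin, the opposite order to the SHMT and MTHFD genes. GPT2, the mitochondrial alanine aminotransferase, also chosen after its values were seen, rose 2.29-fold, to 15.7 ± 0.533 FPKM in metformin libraries, against 6.84 ± 0.555 FPKM in PBS libraries. Proline synthesis, again looked at with its values known, was mixed: PYCR1, a mitochondrial reductase, rose 1.56-fold, and OAT, ornithine aminotransferase, fell 1.804-fold. PYCR1 shares 450 exon bases with the antisense gene AC145207.4, which averaged 20.3 FPKM in metformin libraries and 14.9 FPKM in PBS libraries, and GOT2 shares 162 with AC092378.1, at 0.684 FPKM in metformin libraries and 2.85 FPKM in PBS libraries. Their part in the values of PYCR1 and GOT2 was not tested.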
